A study of Homo sapiens with 6 samples.

Results

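The annexin genes of the deposited count table were followed across control and BARD1-expressing ovarian carcinoma cells, as 10 named rows of 58735 genes. The rows are ANXA1, ANXA2, ANXA3, ANXA4, ANXA5, ANXA7, ANXA8, its near-identical copy ANXA8L1, ANXA10 and ANXA11, and the reads of ANXA8 and ANXA8L1 were also summed. The genes were chosen by their symbols with their read counts in these same 6 libraries already known, so their differences between the groups are a description: a call in the fit over all genes says where a member fell in that fit and is no independent test of it. RNA was sequenced from 3 control libraries and 3 libraries of cells made to express BARD1, which pairs with BRCA1 to form a ubiquitin ligase, all labelled 48 h. The labels call the cells of both groups stable, and the treatment protocol says that BARD1 was delivered by a lentiviral plasmid into OVCAR8 cells, a line from a high-grade serous ovarian carcinoma. Whether the control cells carried an empty vector, and whether the BARD1-expressing cells were a clone or a pool, is not stated by the labels. Titles and growth protocol instead name OVCAR8ip1, whereas SKOV3ip1 stands in the cell line tag and the source name speaks of tumors, so the line and the kind of material are in conflict. An effect of BARD1 and any other difference between the control and transduced cells cannot be told apart.

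Total counts were 21819199 to 23992482 in the control libraries and 12744310 to 24349158 in the BARD1-expressing libraries, and 15400 genes had enough reads to be tested. Levels are given as CPM, reads scaled to library size by TMM (a trimmed mean of log ratios between libraries), and group means carry the SD over 3 libraries. A positive log2 fold change means more reads in BARD1-expressing cells, and its error is the SE. BARD1 itself had 414, 392 and 420 reads in control and 623, 1072 and 688 in BARD1-expressing cells, so it was higher in every library labelled as expressing it. The simple-epithelial keratin genes KRT8 and KRT18 stood at 2078 and 722 CPM in control and 2013 and 720 CPM in BARD1-expressing cells, while KRT7 was called higher (842 and 1066 CPM). Of the same list, EPCAM (19.2 and 19.0 CPM) and CDH1 (1.08 and 0.999 CPM) were not called. CDH1 had only 12 to 28 reads per library. Of 4 tested ovarian carcinoma markers, the Müllerian lineage factor gene PAX8 was called lower (143 and 91.4 CPM). FOLR1 was called higher (2.56 and 3.799 CPM), and MSLN was not called (183 and 191 CPM). WT1 was also called higher (0.393 and 0.966 CPM), but its groups overlapped. It had 10, 7 and 10 reads in control and 5, 43 and 11 reads in BARD1-expressing libraries. The ovarian markers MUC16 and MECOM and the keratin KRT19 had no read in any library. Summed over the fixed markers, basal or squamous epithelium gave 0.0413 to 0.350 CPM in control and 0.133 to 0.248 CPM in BARD1-expressing libraries. Immune and blood markers gave 0.231 to 0.330 and 0.124 to 0.464 CPM. Endothelial markers gave 0.569 to 0.660 and 0.786 to 1.26 CPM, with EMCN at 0 throughout. None of the genes in these 3 lists had enough reads to be tested. Of 7 fibroblast and pericyte markers, 4 were tested, with 2 higher and 1 lower, against 16.5% and 12.4% of all tested genes. Their sum ran from 1015 to 1082 CPM in control and 840 to 887 CPM in BARD1-expressing libraries and was nearly all COL1A1. DCN had no read, COL1A2 had 1 read in BARD1-expressing 1 alone, and PDGFRA had 1 to 4 reads per library. PDGFRB (4.81 and 13.7 CPM) and LUM (0.186 and 0.795 CPM) were called higher, and RGS5 (0.616 and 0.544 CPM) was not called. LUM had only 3 to 15 reads per library. The part of any fibroblast admixture in the results below was not tested. In bulk RNA, fewer cells that express a gene and less RNA per cell cannot be told apart.

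Annexins are proteins that bind negatively charged phospholipids in the presence of calcium, through a conserved core of repeated domains that is attached to a variable amino-terminal tail. The tail differs between members and decides which partners are bound, among them small calcium-binding proteins of the S100 family. In epithelial and carcinoma cells annexins are known for roles in membrane repair, vesicle traffic, the cell cortex and the generation of plasmin at the cell surface. Annexin A8, encoded by ANXA8, associates with late endosomes and the actin cytoskeleton and was first described as an anticoagulant protein.

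ANXA8 lies on chromosome 10 at 47460162 to 47484158 (ENSG00000265190, minus strand, GRCh38). ANXA8L1 lies on chromosome 10 at 46375627 to 46391784 (ENSG00000264230, plus strand). The copies have transcripts that differ at few bases, so their sequences bear on every count of the copies below. The annotation holds a transcript of each with 2174 bases in 12 exons, and these 2 transcripts differed at 13 positions (99.4% identity). Of the 13 differences, 7 lay before the reading frame, 5 within its 1095 bases and 1 after it, and the longest stretch without a difference ran over 562 bases. The 5 coding differences, counted from the A of the start codon and written from ANXA8 to ANXA8L1, were T16G, C390T, A642G, G644C and T1053C. The stretches that hold them are shown. Within the shared exons, only reads that cover any of the 13 differing bases, coding or not, can be assigned to 1 copy. Capitals mark the bases that differ.

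The start of the reading frame lies in the first exon, at chr10:47483913-47483933 (minus strand) for ANXA8 and chr10:46375852-46375872 (plus strand) for ANXA8L1.
ANXA8: atggcctggtggaaaTcctgg
ANXA8L1: atggcctggtggaaaGcctgg

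Coding bases 370 to 410 lie in exon 4, at chr10:47477106-47477146 (minus strand) and chr10:46382627-46382667 (plus strand).
ANXA8: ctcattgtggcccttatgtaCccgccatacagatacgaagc
ANXA8L1: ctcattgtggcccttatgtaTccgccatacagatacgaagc

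Coding bases 622 to 664 lie in exon 7, at chr10:47474947-47474989 (minus strand) and chr10:46384789-46384831 (plus strand).
ANXA8: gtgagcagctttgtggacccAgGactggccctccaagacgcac
ANXA8L1: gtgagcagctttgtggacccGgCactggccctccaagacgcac

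Coding bases 1039 to 1073 lie in exon 12, at chr10:47468872-47468906 (minus strand) and chr10:46390871-46390905 (plus strand).
ANXA8: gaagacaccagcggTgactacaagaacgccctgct
ANXA8L1: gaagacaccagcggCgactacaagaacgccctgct

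Over all annotated transcripts of each gene, 66.6% of the distinct 100-base stretches of ANXA8L1 also occurred in ANXA8, and 38.6% of those of ANXA8 occurred in ANXA8L1. With stretches of 150 bases the shares were 53.8% and 31.5%. At 100 bases the shares rest on the same 2094 stretches, out of 3145 in ANXA8L1 and 5425 in ANXA8. The sources used here do not say how reads that match both copies were counted, so each row alone is uncertain. The sum does not depend on how such reads were split between the rows, but would lack them if they were left out.

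Both ANXA8 copies were higher in BARD1-expressing cells. ANXA8 had 604, 633 and 516 reads in control libraries 1 to 3 and 1135, 2048 and 1312 reads in BARD1-expressing libraries 1 to 3, or 24.9, 27.7 and 23.8 CPM against 89.3, 84.6 and 87.1 CPM. The groups lay far apart, with the lowest BARD1-expressing library above the highest control library. The mean went from 25.5 ± 2.02 to 87.0 ± 2.35 CPM (SD, n = 3 each), a log2 fold change of 1.77 ± 0.071. ANXA8L1 had 25, 24 and 14 reads in control and 151, 320 and 195 reads in BARD1-expressing libraries. Its mean went from 0.909 ± 0.229 to 12.7 ± 0.707 CPM, a log2 fold change of 3.79 ± 0.18, and its groups did not overlap.

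The sum of the 2 copies had 629, 657 and 530 reads in control and 1286, 2368 and 1507 reads in BARD1-expressing libraries. It went from 26.4 ± 2.20 to 99.6 ± 1.71 CPM (SD, n = 3 each), a log2 fold change of 1.92 ± 0.069, or 3.77-fold. The split of the reads between the copies also differed between the groups. ANXA8L1 took 3.97%, 3.65% and 2.64% of the summed reads in control libraries 1 to 3 (exact 95% binomial intervals 2.59 to 5.81, 2.35 to 5.39 and 1.45 to 4.39%). In BARD1-expressing libraries it took 11.7%, 13.5% and 12.9% (10.03 to 13.6, 12.2 to 14.96 and 11.3 to 14.7%). Because reads without molecular identifiers can be copies of one molecule, the intervals describe counting error alone. No interval of a control library touched one of a BARD1-expressing library. The intervals take no account of the spread between libraries and are no test of the groups. As counted, both rows moved in the same direction but by unequal amounts. Other annotated transcripts whose exons overlap ANXA8L1 on the same strand had at most 1 read in any library. How reads that fit both genes were counted is not given, so these counts do not show whether ANXA8L1 lost reads there.

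**Figure D1:**
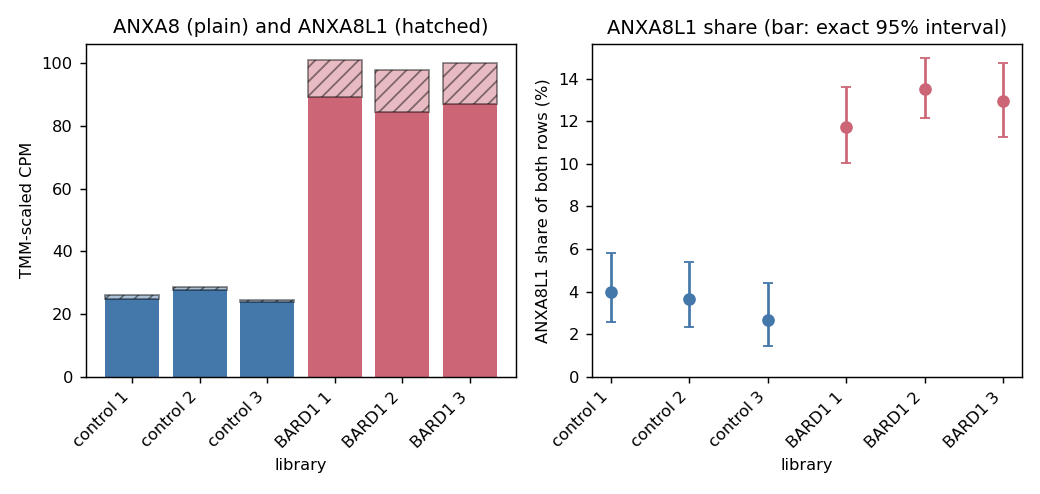
Left, CPM of ANXA8 (plain bars) and ANXA8L1 (hatched, stacked on top) in each library, blue for control and red for BARD1-expressing. Right, the share of the reads of both rows that was counted for ANXA8L1, with exact 95% binomial intervals; the shares run from 2.64 to 3.97% in control and from 11.7 to 13.5% in BARD1-expressing libraries.

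The genes next to the ANXA8 copies were read by position. Within 500 kb of either copy on chromosome 10 the table holds 56 other genes, of which 20 were tested, 5 were called higher and none lower at an adjusted p under 0.05 over all tested genes (edgeR quasi-likelihood test). Over all tested genes, 16.5% were called higher and 12.4% lower. The other 15 were not called, and the median log2 fold change of the 20 genes was 0.24. PTPN20, a tyrosine phosphatase gene that lies between the copies (46911396 to 47002488), had no read in any control library and 43, 67 and 39 reads in BARD1-expressing libraries. It was at least 65.7-fold higher from pooled counts with 3 counts set for the control group, and at least 42.5 to 68.3-fold with 1 library left out (edgeR adjusted p = 1.27e-09). The nuclear receptor coactivator gene NCOA4, known for its role in ferritin turnover, rose by 0.82 ± 0.06 on the log2 scale (edgeR adjusted p = 1.91e-10), and TIMM23, a subunit gene of the mitochondrial import channel, by 0.69 ± 0.058 (edgeR adjusted p = 1.52e-09). The processed pseudogene RHEBP2 (0.31 ± 0.083) and the noncoding AC245041.2 (0.50 ± 0.101) were the other genes called higher. The call of RHEBP2 was lost without control 2 or BARD1-expressing 3 (edgeR adjusted p = 0.0527 and 0.0769). Whether reads of RHEBP2 came from similar sequence elsewhere in the genome was not tested. Of the tested protein-coding genes, ZNF488 and AGAP9 lie nearest to ANXA8 on either side and were named after their values were seen. Their log2 fold changes were 0.23 ± 0.191 and -0.14 ± 0.177, and the groups overlapped at both.

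**Figure D2:**
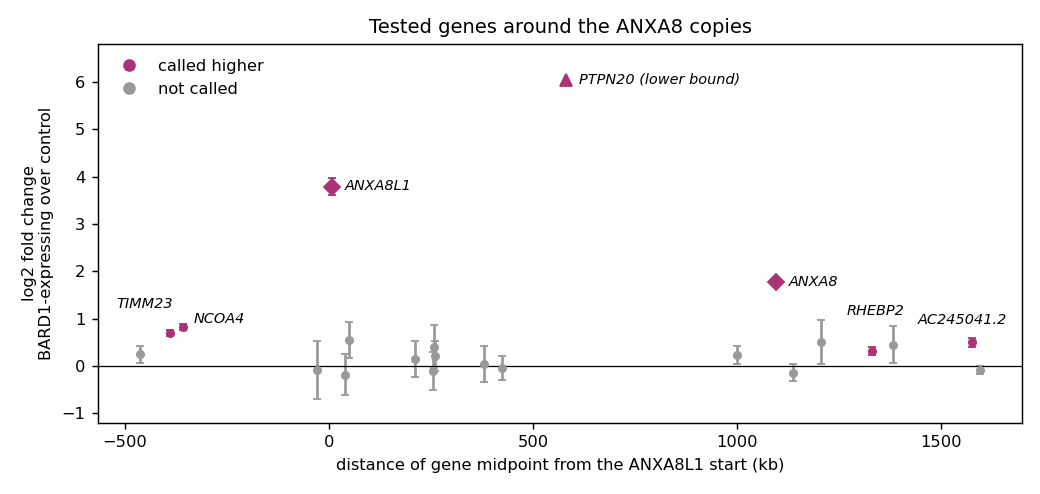
Log2 fold change (BARD1-expressing over control, bars are SE) of the tested genes around the ANXA8 copies against the distance of each gene's midpoint from the ANXA8L1 start in kb. Diamonds mark the copies, at 3.79 and 1.77, purple marks genes called higher and grey those not called, and the triangle is the lower bound for PTPN20, which had no control read.

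The most abundant annexins differed little between the groups. ANXA2, ANXA5 and ANXA1 together held 88.7% ± 0.226 of the CPM summed over the 10 genes in control and 88.0% ± 0.410 with BARD1 (SD, n = 3 each). The summed CPM itself was 4294 ± 92.4 in control and 4250 ± 106 in BARD1-expressing cells, which differ by less than the spread between libraries. The larger relative differences in ANXA8, ANXA8L1 and ANXA3 thus lay in genes of lower count.

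ANXA2 (ENSG00000182718, chromosome 15, 60347134 to 60402883) encodes the annexin that pairs with S100A10 and, as a complex, binds plasminogen and its activator at the cell surface. It stood at 2098, 2152 and 2158 CPM in control and 2262, 2175 and 2256 CPM in BARD1-expressing libraries. The ranges did not touch, but the difference was small, with a log2 fold change of 0.06 ± 0.044, and it was not called. The processed pseudogene ANXA2P2 on chromosome 9 stood at 116 ± 4.38 and 112 ± 3.83 CPM (SD, n = 3 each), and 31.2% of its distinct 100-base stretches occur in ANXA2 transcripts, so its count is uncertain. Summed with ANXA2 it took 5.14% ± 0.134 of the reads in control and 4.77% ± 0.0879 in BARD1-expressing cells, and the log2 fold change of the sum was 0.06 ± 0.044.

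ANXA5 (ENSG00000164111, chromosome 4, 121667955 to 121697113) encodes the annexin used as a probe for phosphatidylserine on dying cells. It stood at 980, 1029 and 1055 CPM in control and 915, 864 and 889 CPM in BARD1-expressing libraries. All BARD1-expressing libraries were below all control libraries, with a log2 fold change of -0.20 ± 0.047. ANXA1 (ENSG00000135046, chromosome 9, 73151757 to 73170393) encodes a glucocorticoid-induced protein that dampens inflammation. It stood at 639, 637 and 684 CPM in control and 657, 585 and 623 CPM in BARD1-expressing libraries, so the groups overlapped, and its log2 fold change was -0.07 ± 0.051.

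On the log2 scale, ANXA3 had the largest difference downwards among the listed annexins. ANXA3 (ENSG00000138772, chromosome 4, 78551519 to 78610451) encodes an annexin studied in vesicle traffic and in resistance of ovarian cancer to platinum drugs. Its libraries held 3063, 3073 and 2978 reads in control and 692, 1198 and 832 reads in BARD1-expressing cells, or 126, 135 and 137 CPM against 54.4, 49.5 and 55.2 CPM. The groups were well apart. The mean went from 133 ± 5.73 to 53.0 ± 3.11 CPM (SD, n = 3 each), a log2 fold change of -1.33 ± 0.061, or 2.51-fold lower. ANXA4 (ENSG00000196975, chromosome 2, 69644425 to 69827100), an annexin of secretory epithelia known from clear cell carcinoma of the ovary, stood at 25.2, 23.3 and 21.3 CPM in control and 25.2, 23.6 and 25.0 CPM in BARD1-expressing libraries. Its groups overlapped, with a log2 fold change of 0.08 ± 0.086. ANXA10 (ENSG00000109511, chromosome 4, 168092515 to 168187690), known from gastric mucosa, had 1 read in control 3 and no read in the other libraries. It did not pass the filter on low counts, and 3 counts, the limit that a count of 0 allows, correspond to 0.124 to 0.236 CPM across the libraries.

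ANXA11 and ANXA7 encode annexins with long amino-terminal tails. ANXA11 (ENSG00000122359, chromosome 10, 80150889 to 80205572) encodes an annexin that tethers RNA granules to lysosomes. It stood at 114, 108 and 111 CPM in control and 149, 159 and 163 CPM in BARD1-expressing libraries. Every BARD1-expressing library exceeded every control library, with a log2 fold change of 0.50 ± 0.054, or 1.41-fold. ANXA7 (ENSG00000138279, chromosome 10, 73375101 to 73414076), which was named synexin for its part in the fusion of secretory granules, stood at 187, 196 and 187 CPM in control and 169, 178 and 176 CPM in BARD1-expressing libraries. Its log2 fold change was -0.13 ± 0.05, and although the ranges did not touch it was not called. Both genes lie on chromosome 10 far from the ANXA8 copies.

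**Figure D3:**
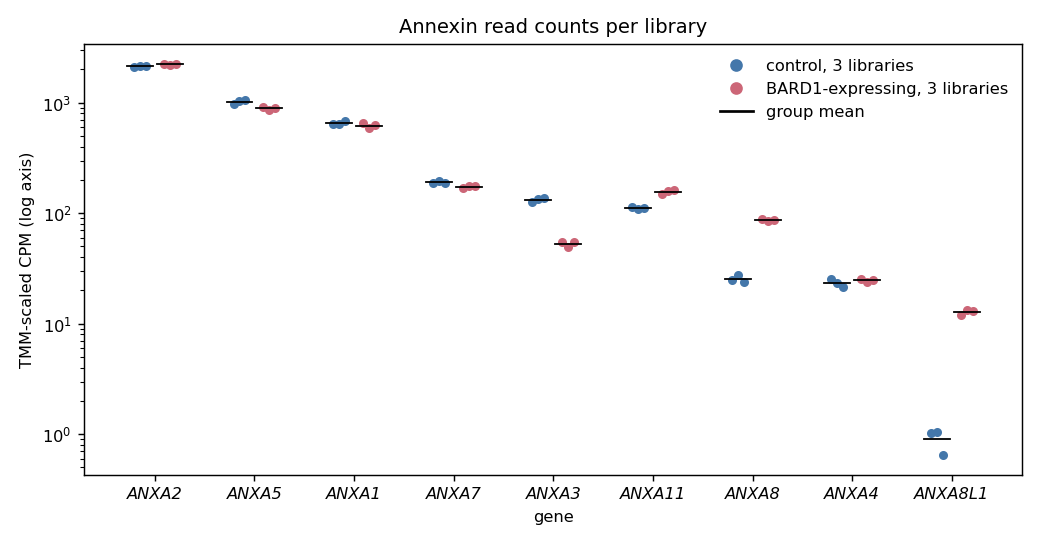
TMM-scaled CPM (log axis) of the 9 annexin genes that passed the filter on low counts, with a point for each library and a line at the group mean, ordered by control level. ANXA8 and ANXA8L1 are higher and ANXA3 is lower in all 3 BARD1-expressing libraries, at 87.0, 12.7 and 53.0 against 25.5, 0.909 and 133 CPM.

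In the fit over all tested genes, 9 of the 10 members passed the filter on low counts and 5 of these were called at an adjusted p under 0.05, namely ANXA8, ANXA8L1 and ANXA11 higher and ANXA3 and ANXA5 lower. Of all tested genes, 29% were called. The ranges of the groups did not overlap at 7 of the 9 members, 4 higher and 3 lower, against 40.9% of all tested genes (21.7% higher and 19.2% lower). Nothing is read from these counts, because the members were picked with this comparison in view. The median log2 fold change was 0.06 over the 9 members and -0.003 over all tested genes, and the median of its absolute value was 0.20 and 0.18. No direction was common to the family.

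Levels were compared between genes as CPM per kb of the gene length given in the deposited table. In control cells the order of these levels was ANXA5 (337 ± 12.6), ANXA2 (242 ± 3.74), ANXA1 (143 ± 5.78), ANXA7 (66.4 ± 1.73), ANXA3 (25.9 ± 1.12), ANXA11 (13.1 ± 0.356), ANXA8 (5.14 ± 0.408), ANXA4 (2.11 ± 0.174), ANXA8L1 (0.318 ± 0.0799) and ANXA10, with SD over 3 libraries. The ranges of neighbours in this order did not touch. In BARD1-expressing cells the leading genes kept their places at 293 ± 8.43 (ANXA5), 253 ± 5.51 (ANXA2), 136 ± 7.95 (ANXA1) and 60.8 ± 1.60 CPM per kb (ANXA7). ANXA11 (18.4 ± 0.868) and ANXA8 (17.6 ± 0.474) came next, and the ranges of these neighbours overlapped. ANXA3 (10.4 ± 0.607), ANXA8L1 (4.43 ± 0.247) and ANXA4 (2.23 ± 0.0797) followed, again with ranges that did not touch. ANXA8 thus stood below ANXA3 in control cells and above it in BARD1-expressing cells, per kb and in CPM alike. ANXA8L1 stood below and then above ANXA4 per kb only. In CPM it stayed below ANXA4 in control (0.909 and 23.3) and in BARD1-expressing cells (12.7 and 24.6). ANXA2 likewise stood above ANXA5 in CPM in both groups. The order per kb therefore depends on the deposited gene lengths, such as 11048 bases for ANXA4 and 2860 for ANXA8L1.

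The other annexin genes are no members. ANXA6 (chromosome 5, 151100712 to 151157882), which encodes the annexin with a doubled core, rose from 228 ± 3.05 to 347 ± 12.5 CPM (SD, n = 3 each), a log2 fold change of 0.61 ± 0.049 (edgeR adjusted p = 8.20e-10). ANXA9 stood at 2.08 ± 0.289 and 2.16 ± 0.500 CPM (SD, n = 3 each) and its groups overlapped. ANXA13 had 1 read in 1 library of each group and was not tested. Of the genes named after annexins, ANXA2R, which encodes a putative receptor for annexin A2, had a log2 fold change of -0.27 ± 0.441 and was not called. The pseudogenes ANXA2P1 and ANXA2P3 had too few reads to be tested.

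Genes whose products work with annexins were taken from fixed lists. Over all lists, with the other annexins and the genes named after annexins included, 42 genes are in the table, 34 were tested, 10 rose and 4 fell, against 16.5% and 12.4% of all tested genes, and their median log2 fold change was 0.05. Of 6 S100 and EF-hand partners 1 rose and 2 fell. S100A10, the partner of annexin A2, stood at 333 ± 8.67 and 336 ± 17.5 CPM (SD, n = 3 each), with overlapping groups. S100A11, which binds annexin A1, fell from 216 ± 0.683 to 193 ± 8.07 CPM (SD, n = 3 each; edgeR adjusted p = 0.0159), and its call was lost without control 2 or BARD1-expressing 3 (edgeR adjusted p = 0.0614 and 0.0646). PDCD6, which encodes the calcium sensor ALG-2 that binds annexins A7 and A11, fell by 0.23 on the log2 scale (SE 0.063, edgeR adjusted p = 0.00704). S100A4, a partner of annexin A2 known from cell motility, rose from 1.59 ± 0.260 to 3.38 ± 0.254 CPM (SD, n = 3 each; edgeR adjusted p = 0.000657). S100A6 (-0.35 ± 0.178) and SRI (0.07 ± 0.054), which encodes sorcin, were not called. The groups overlapped at S100A6, while at SRI the ranges did not touch and BARD1-expressing libraries were higher.

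Of 9 tested genes of membrane repair and the cell cortex, 4 rose and 2 fell, against 16.5% and 12.4% of all tested genes. DYSF, which encodes dysferlin, a membrane repair protein that binds annexins A1 and A2, rose from 2.85 ± 0.308 to 7.15 ± 0.876 CPM (SD, n = 3 each; edgeR adjusted p = 1.36e-06). Its paralog MYOF rose from 465 ± 13.4 to 591 ± 30.9 CPM (edgeR adjusted p = 8.37e-06), and AHNAK, whose giant product binds the annexin A2 and S100A10 complex, from 1024 ± 40.8 to 1297 ± 109 CPM (edgeR adjusted p = 3.39e-05). The call of EHD2 (0.13 ± 0.048), a gene for a caveolar ATPase, was lost in 11 of 12 alternatives. CAPN2, a calpain protease gene, fell by 0.23 (SE 0.046, edgeR adjusted p = 0.000397), and the caveolin gene CAV1 by 0.19 on the log2 scale (SE 0.051, edgeR adjusted p = 0.00584), a call lost without control 2 (edgeR adjusted p = 0.0596).

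Of 7 tested genes that set the exposure of phosphatidylserine, the lipid that annexin A5 binds, 3 rose and none fell. The shares over all tested genes were 16.5% higher and 12.4% lower, and nothing is read from so few genes. ATP11A, a gene for a flippase that keeps this lipid on the inner leaflet, rose from 73.9 ± 0.924 to 98.8 ± 3.04 CPM (SD, n = 3 each; edgeR adjusted p = 3.24e-06), and TMEM30A, which encodes a flippase subunit, from 305 ± 12.1 to 351 ± 20.6 CPM (edgeR adjusted p = 0.00477). The scramblase genes ANO6 (0.07 ± 0.054) and XKR8 (0.04 ± 0.093) were not called.

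The receptors of annexin A1, encoded by FPR1, FPR2 and FPR3, had no read in any library. The phospholipase gene PLA2G4A, whose product annexin A1 is known to inhibit, had a log2 fold change of -0.35 ± 0.172 and was not called. None of the 3 tested genes of plasmin generation was called. PLAT, the tissue plasminogen activator gene, was close to the threshold at -0.18 ± 0.069 (edgeR adjusted p = 0.05003) and was called lower in 5 of 12 alternatives, and plasminogen itself (PLG) had no read. The plasminogen receptor genes PLGRKT (0.15 ± 0.147) and ENO1 (-0.03 ± 0.044) had overlapping groups. Of 4 genes of late endosomes and tetraspanins, RAB27A rose (0.38 ± 0.114, edgeR adjusted p = 0.0134), a call lost without control 2 or BARD1-expressing 3 (edgeR adjusted p = 0.0902 and 0.140). LAMP1 (0.12 ± 0.047), a lysosomal membrane protein gene, and the tetraspanin gene CD63 (0.18 ± 0.114) were not called. The groups overlapped at CD63. At the uncalled LAMP1 (higher), PLA2G4A and PLAT (both lower) the ranges of the groups did not touch.

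**Figure D4:**
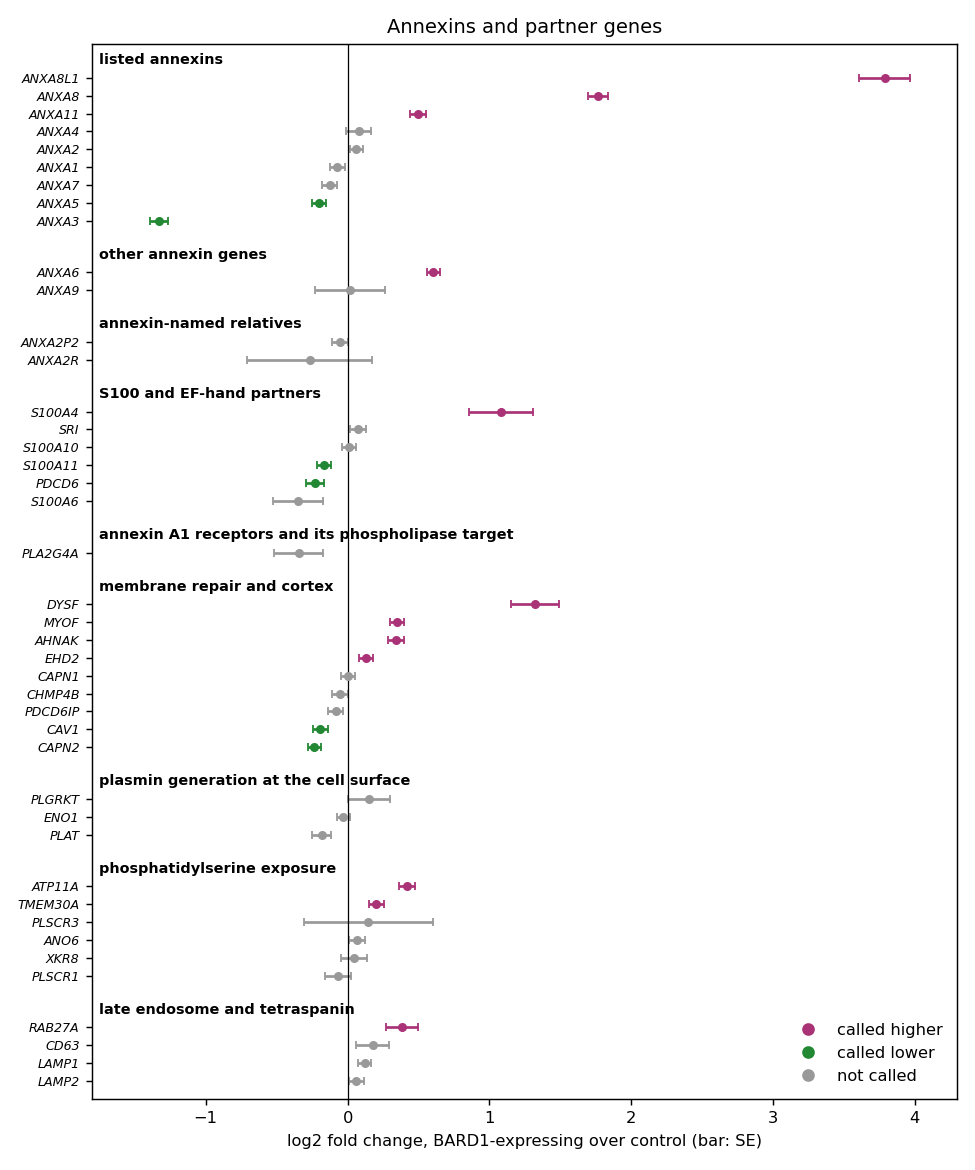
Log2 fold change (BARD1-expressing over control, bars are SE) of the 9 tested members and of the tested genes of the fixed lists that are reported here, with purple for called higher, green for called lower and grey for not called. The members run from -1.33 for ANXA3 to 3.79 for ANXA8L1, and the genes of the lists from -0.35 for S100A6 to 1.32 for DYSF.

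The tested genes whose profile over the 6 libraries was most like that of the summed ANXA8 copies were found by the root mean square difference of log2 CPM, centred on each gene, among genes that averaged 1 CPM or more. GREM1, which encodes a secreted antagonist of bone morphogenetic proteins, came first with a difference of 0.0805 on the log2 scale. Its level was 30.7 ± 1.73 CPM in control and 107 ± 2.90 CPM with BARD1. OASL (0.130), EGR1 (0.132), ZNF558 (0.134) and DDX60 (0.135) followed. With 6 libraries in 2 groups, this likeness rests mainly on the difference between the groups.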

How the data were processed

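Raw read counts per gene for 6 libraries were analysed as deposited by the authors, whole numbers without normalization, with the authors' gene lengths in bases and positions on GRCh38. The submitters' processing notes name the aligner HISAT2 2.0.5, the counter featureCounts 1.5.0-p3 and, without a role, DESeq2 1.20.0. Strand use and the treatment of reads that fit several genes are not given in the sources used here. All 58735 gene identifiers matched GENCODE 29 with the same start and end, and that annotation's transcripts (GRCh38) gave the sequences.

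The main test was edgeR 4.0.16 under R 4.3.3 (filterByExpr, TMM scaling, robust quasi-likelihood F test on group, Benjamini-Hochberg adjustment over 15400 genes). A gene is called at an adjusted p under 0.05. Summed copies replaced their rows before a refit. CPM used the TMM-scaled totals of tested genes. Tested on simulated data with few changed genes, the fit recovered most changes, and the share of false calls was above the nominal threshold. That setting differs from these data, where 29% of tested genes were called, so it does not give the share of false calls here. Replicate pairs within a group differed by a chi-square per degree of freedom of 3.41 to 8.11, so all libraries were kept. The labels call replicates biological without naming separate cultures, so the spread behind each p-value may be technical.

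Named genes are all members, the other annexins and genes named after them, of each partner list the called genes and those with the smallest p, genes within 500 kb of the ANXA8 copies, the 5 genes most like their sum, and BARD1; 1 called gene of the lists enters the counts but is not reported here. Members and lists were chosen with earlier results of these data known. Alternatives were another scaling (also without chromosome 18 and mitochondrial genes), DESeq2 1.42.0, no or a stricter low-count filter, a replicate block, and leaving out each library.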

Additional observations from a re-analysis of the deposited data

How the results depend on the processing

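Of the 9 tested members, 8 kept their direction and their side of the threshold in all 12 alternatives, and ANXA7 kept its direction but crossed the threshold in 3. These were TMM computed without chromosome 18 and mitochondrial genes, a filter of at least 1 CPM in at least 3 libraries, and leaving out BARD1-expressing 2 (log2 fold changes of -0.14, -0.13 and -0.15). As the members were picked with these libraries known, this describes the fit and supports nothing. The log2 fold change of the summed ANXA8 copies was 1.86 to 1.98 with 1 library left out, that of ANXA8L1 3.60 to 3.89 and that of ANXA3 -1.37 to -1.28. With 1 library left out, 15674 to 15823 genes were tested and 3317 to 4755 were called in all, 5 to 6 members and 10 to 17 partner genes. DESeq2 called 3595 of 17309 tested genes, 5 of them members.

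Replicate numbers are shared between the groups, but the deviations of same-numbered libraries from their group means had correlations of -0.11, -0.03 and -0.01, and no library correlated best with its own number. With the replicate number as a block, 3990 of 15400 tested genes were called in all and 5 members. Of the tested members, ANXA8L1 had the fewest reads, 14 in control 3, and depth limits its level most.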

Other observations

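The tested genes within 1 Mb of each annexin gene were counted after the values of the annexins had been seen. Over all tested genes, 16.5% were called higher and 12.4% lower. Around ANXA6 14 of 21 such genes were called higher and none lower, with a median log2 fold change of 0.39, beside 0.61 for ANXA6 itself. PDGFRB, a gene of the fibroblast and pericyte list, was among those called higher there. Around ANXA11 5 of 15 were higher and 2 lower, with a median of 0.36, beside 0.50 for ANXA11. Around ANXA3 1 of 7 was higher and 3 were lower, with a median of -0.24, beside -1.33 for ANXA3. Around ANXA8L1 6 of 19 were higher and none lower (median 0.23), and around ANXA8 4 of 16 were higher and none lower (median 0.22). The windows of these copies overlap, so genes between them, PTPN20 included, were counted for both. They also hold genes already counted within 500 kb of the copies. Around ANXA5 2 of 8 were higher and none lower (median 0.09), beside -0.20 for ANXA5. Around ANXA1 1 of 2 was higher and none lower, with a median of 0.70, beside -0.07 for ANXA1. Around ANXA7 6 of 34 were higher and 6 lower (median -0.05), around ANXA4 3 of 19 were higher and 2 lower (median 0.04), and around ANXA2 none of 7 was called in either direction (median 0.05). Around ANXA10, itself untested, 3 of 5 were higher and none lower (median 0.27).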
